A study of Mus musculus with 10 samples.

Results

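The genes described here are the TNF superfamily members that carry Tnfrsf or Tnfsf symbols, together with the TRAF adaptors Traf1 to Traf7. They were taken by a rule on symbols, which was set with earlier results of these data known. The rule took 39 of the 55421 genes in the count table: 20 receptors, 11 ligands, 7 adaptors and 1 antisense transcript, Tnfsf13os. Family members with other symbols, such as Cd40, Ltbr and Tnf, are outside the rule and are described near the end.

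TNF family ligands bind trimeric receptors on the cell surface, and most of the receptors pass the signal on through TRAF proteins, which are ubiquitin ligases or scaffolds. The signal reaches the classical NF-kappaB pathway and MAP kinases, or the alternative NF-kappaB pathway, which Traf3 and Traf2 hold back in resting B cells by keeping the kinase Map3k14 (NIK) low. In B cells the best known members are the BAFF receptor, encoded by Tnfrsf13c, which keeps mature B cells alive, and TACI, encoded by Tnfrsf13b. A germinal center is the site in a lymphoid follicle where B cells divide and mutate their antibody genes as centroblasts in the dark zone, and are selected as centrocytes in the light zone.

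RNA-seq libraries, 10 in number, were made from germinal center B cells of the spleen, enriched with beads that carry the lectin PNA. The mice were of strain C57BL/6, aged 8 to 10 weeks, and the cells were taken at day 10 after immunization. There were 2 libraries of Pbrm1-/- CC cells (HOMO CC), 3 of Pbrm1+/+ CC cells (WT CC), 2 of Pbrm1-/- CB cells (HOMO CB) and 3 of Pbrm1+/+ CB cells (WT CB). Pbrm1 encodes a subunit of the PBAF chromatin remodelling complex. What CB and CC stand for is not written out in the labels, nor how the fractions were separated, how the Pbrm1 allele was made and which cells carry it, or whether a library is 1 animal or a pool. P-values therefore reflect library-to-library spread, part of which may be technical. Libraries are named here by the numbers in the table's columns, which are 2 and 3 for HOMO and 1 to 3 for WT. The column names of both genotypes also carry the letters AID, which the labels do not explain.

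Library totals ran between 9954006 and 15514361 counts in HOMO CC, 13662538 and 27091509 in WT CC, 27034386 and 67625110 in HOMO CB, and 26372234 and 61627968 in WT CB. Counts on Pbrm1 were 151.84 and 150.40 CPM in HOMO CC (counts scaled to a common library size with TMM factors), against 238.81, 239.13 and 250.30 CPM in WT CC. In CB they were 177.80 and 163.90 CPM in HOMO and 319.01, 308.74 and 312.13 CPM in WT. The summed level of 5 dark zone markers was 557 to 650 CPM in the CC libraries, against 1307 to 1740 CPM in the CB libraries, with no overlap. Several libraries stood apart. WT CC 1 and WT CC 2 held 22.7% and 19.0% of their counts on 4 ribosomal RNA genes, against 8.73% to 13.5% in the other 8 libraries. The same pair carried more counts on macrophage genes, given below beside 3 receptors, and on erythroid and megakaryocyte genes. The summed level of neutrophil genes was 126.7 CPM in HOMO CC 2 and 158.8 CPM in HOMO CB 2, against 14.53 CPM or less in the other 8 libraries, and its part in the members' values was not tested. Each WT CB library deviated most like the WT CC library of its own number, though numbers 1 and 2 were also alike across numbers. The libraries numbered 3 deviated away from those numbered 1 and 2.

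Promoter windows in RefSeq (assembly GRCm38.p6) were available for 31 of the 39 members. The 250 bases before the RefSeq start are shown for the 4 members that passed the test in the same direction between fractions in both genotypes: Tnfrsf8, Tnfrsf14 and Traf3, which were higher in CC, and Traf5, which was lower. They are printed 5′ to 3′ on the gene's strand, and capitals mark bases that match the kappaB consensus, the sequence NF-kappaB dimers are known to bind, searched on both strands. The windows are chr4:145315165-145315414 (minus strand) for Tnfrsf8, chr4:154928078-154928327 (minus) for Tnfrsf14, chr12:111166120-111166369 (plus) for Traf3 and chr1:192092600-192092849 (minus) for Traf5.
Tnfrsf8: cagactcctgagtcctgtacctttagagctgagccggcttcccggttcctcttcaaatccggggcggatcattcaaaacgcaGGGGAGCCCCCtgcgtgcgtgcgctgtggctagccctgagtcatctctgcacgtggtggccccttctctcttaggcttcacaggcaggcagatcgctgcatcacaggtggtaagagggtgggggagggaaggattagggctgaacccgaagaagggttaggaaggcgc
Tnfrsf14: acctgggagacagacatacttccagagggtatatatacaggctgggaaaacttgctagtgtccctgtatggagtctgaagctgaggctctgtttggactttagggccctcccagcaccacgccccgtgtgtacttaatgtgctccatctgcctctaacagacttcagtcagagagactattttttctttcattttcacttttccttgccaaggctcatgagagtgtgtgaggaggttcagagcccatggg
Traf3: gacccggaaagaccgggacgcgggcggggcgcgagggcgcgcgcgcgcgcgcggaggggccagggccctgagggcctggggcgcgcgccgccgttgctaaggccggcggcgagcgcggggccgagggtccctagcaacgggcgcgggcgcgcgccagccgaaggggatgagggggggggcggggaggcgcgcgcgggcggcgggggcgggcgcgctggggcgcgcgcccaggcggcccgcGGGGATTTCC
Traf5: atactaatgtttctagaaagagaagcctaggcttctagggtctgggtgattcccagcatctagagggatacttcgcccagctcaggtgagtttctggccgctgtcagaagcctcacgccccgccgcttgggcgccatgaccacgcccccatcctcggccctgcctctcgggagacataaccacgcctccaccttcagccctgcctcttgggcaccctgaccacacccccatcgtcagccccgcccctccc

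Tnfrsf8 held overlapping matches between bases 168 and 158 before the start, and Traf3 held 1 in the last 10 bases before it. The windows of Tnfrsf14 and Traf5 held none. The Tnfrsf14 window lies inside the span of the counted gene, which begins at base 154928563 on the minus strand. Bases before that point were not searched. Over all members 4 of 35 windows had a match before the start (11.4%), those of Tnfrsf8, Traf3, Tnfrsf9 and Tnfrsf25, against 5.0% of 32851 windows of that length in the table. A match is a description of the letters and was not tested against binding.

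Of the 39 members, 24 reached a mean of 1 CPM, the level called expressed here, in at least 1 group: 14 receptors, 3 ligands and all 7 adaptors. The number was 21 in HOMO CC, 23 in WT CC, 20 in HOMO CB and 21 in WT CB. Per kb of gene length, the scale on which different genes can be set side by side, Tnfrsf13c was first at a mean over the 4 groups of 173 CPM per kb. Tnfrsf13b followed at 40.6, Tnfrsf14 at 24.8, Traf5 at 22.7, Traf7 at 19.1, Traf3 at 15.6, Traf1 at 14.6 and Traf2 at 10.1 CPM per kb. Tnfrsf13c ranged over the 10 libraries between 129 and 237 CPM per kb and did not overlap with Tnfrsf13b, whose range was 27.2 to 51.9. Tnfrsf14, with a range of 13.3 to 42.2 CPM per kb, overlapped with its neighbours Tnfrsf13b and Traf5 in this order, and the ranges of neighbouring adaptors overlapped as well, apart from Traf1 (12.35 to 19.1) and Traf2 (9.02 to 12.2 CPM per kb). Traf4 at 9.59, Tnfsf9 at 8.07, Traf6 at 7.55 and Tnfrsf1b at 5.61 CPM per kb came next, and every other member was under 2 CPM per kb.

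**Figure D1:**
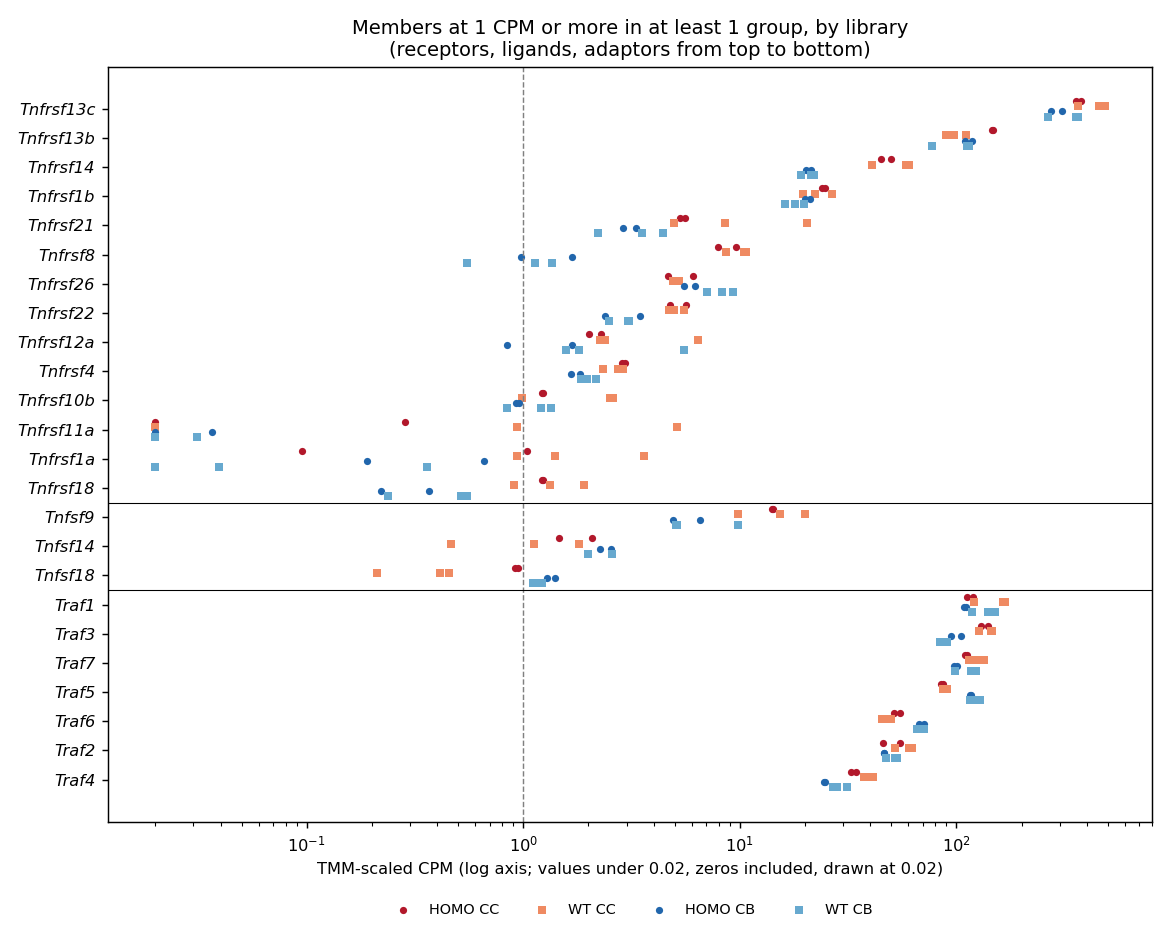
TMM-scaled CPM (log axis) of the 24 members with a mean of at least 1 CPM in at least 1 group, 1 point per library; colours and shapes give the group and the dashed line is 1 CPM. Tnfrsf13c stands between 265 and 486 CPM in every library, the adaptors between 24.47 and 168.55 CPM, and the 3 ligands at 20.01 CPM or less.

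The 15 members under 1 CPM in every group included several with textbook roles in lymphoid tissue. Tnfrsf17, which encodes BCMA, the APRIL and BAFF receptor of plasma cells, had 48 counts in all 10 libraries together. Tnfsf13b and Tnfsf13, which encode BAFF and APRIL themselves, were at 0.28 to 0.90 CPM and at 5 counts in all. Tnfsf4 (OX40 ligand) and Tnfrsf11b (osteoprotegerin, the decoy receptor of RANK ligand) had 1 count each. Tnfsf15 had 0 counts in the 10 libraries, which allows a level of up to 0.010 CPM and covers counting error only. Tnfrsf9 (4-1BB), Tnfrsf19, Tnfrsf23, Tnfrsf25, Tnfsf8 (CD30 ligand), Tnfsf10 (TRAIL), Tnfsf11 (RANK ligand), Tnfsf12 (TWEAK) and Tnfsf13os completed this set, with highest single-library values of 0.079 to 1.47 CPM. Much of the exons of Tnfsf12 and Tnfsf13 is shared with the read-through gene Tnfsfm13, 48.3% and 60.0% of their bases, so their counts are uncertain. A filter on low counts kept 30 members for testing: 16 receptors, 6 ligands, 7 adaptors and Tnfsf13os.

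Between the fractions, the CC libraries had more RNA from the receptors CD30 and HVEM and from Traf3, and less from Traf5, in both genotypes. In WT, 14 of the 30 tested members passed the test (edgeR's quasi-likelihood test, Benjamini-Hochberg adjusted p under 0.05 over 16596 genes), 10 higher and 4 lower in CC, or 46.7%. Over all genes 23.9% passed, 11.6% higher and 12.3% lower. The members' median log2 change was 0.41 in WT, against 0.0097 over all genes. In HOMO, 4 members passed, 3 higher and 1 lower, where 5.45% of all genes did (2.46% higher and 2.98% lower), and the members' median was 0.44 against -0.010. With the WT replicate numbers as a fixed block (edgeR), the count was 9 members in HOMO, with 13.8% of all genes, and 17 in WT, with 35.4%. With a random block (limma-voom), it was 3 in HOMO, with 4.99% of all genes: Tnfrsf8, Tnfrsf14 and Traf5. The HOMO libraries carry no block in the fixed fit and a separate block each in the random fit, so neither fit pairs them. Their results move with the WT block through the shared spread. Upper-quartile scaling gave 4 members higher and 1 lower in HOMO, where 6.04% of all genes passed. In WT it gave 12 higher and 4 lower, where 23.8% passed. Among all genes called, the share higher in CC was then 58.5% in HOMO and 59.5% in WT, against 45.2% and 48.3% with TMM. The libraries of the fractions did not overlap for 21 members in HOMO and 16 in WT, where 62% and 34.4% of all genes did not overlap. In bulk RNA, a change in the number of cells of a type and a change in RNA per cell cannot be told apart.

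**Figure D2:**
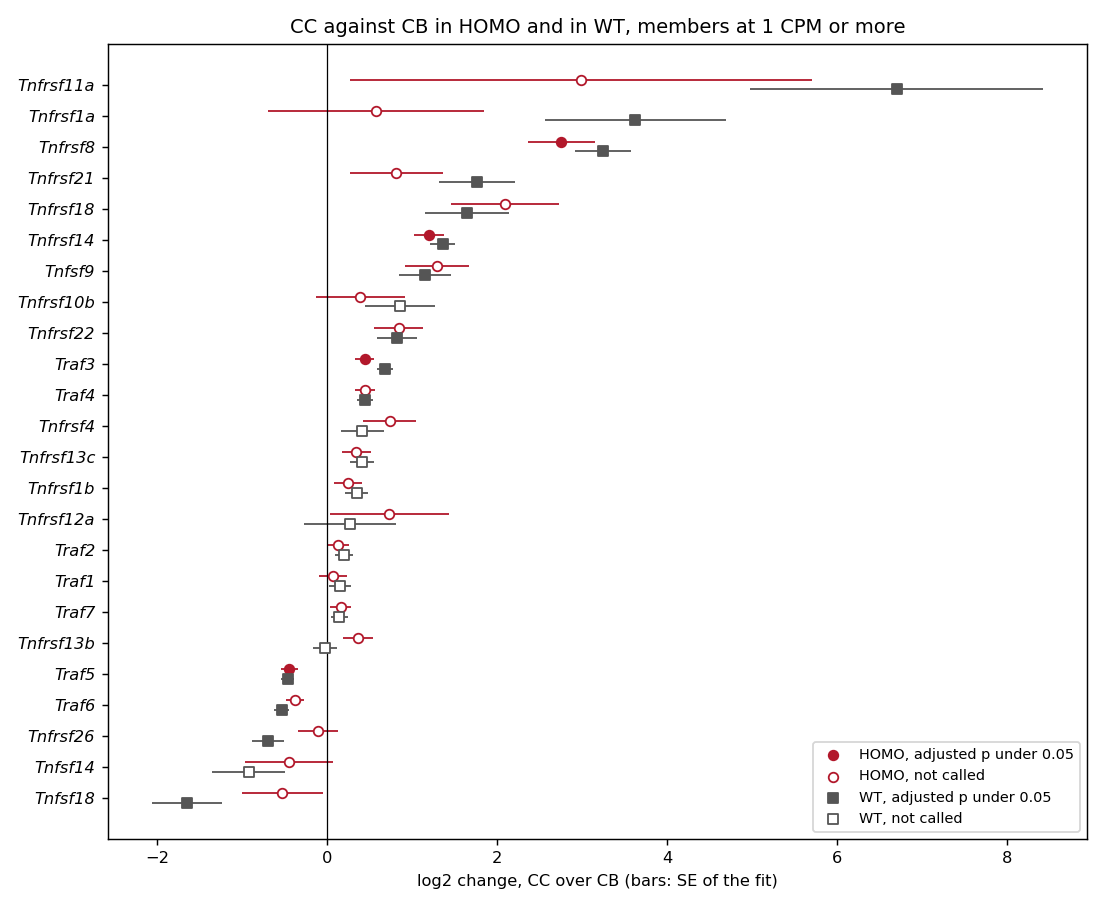
Log2 change of CC over CB for the 24 expressed members, in HOMO (red circles) and in WT (grey squares), with the SE of the fit; filled points have an adjusted p under 0.05. Tnfrsf8 and Tnfrsf14 lie right of 0 and Traf5 left of 0 with filled points in both genotypes; the wide bars of Tnfrsf11a and Tnfrsf1a come with few counts in CB.

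Among the receptors, Tnfrsf8 (chromosome 4, bases 145267137 to 145315164 in mm10) changed most of the 4 called in both genotypes. It encodes CD30, a receptor of activated lymphocytes known as a marker of Hodgkin lymphoma. It had 9.64 and 7.97 CPM in HOMO CC, against 1.68 and 0.98 CPM in HOMO CB. It had 10.43, 10.67 and 8.64 CPM in WT CC, against 0.55, 1.13 and 1.35 CPM in WT CB. Every CC library was thus above every CB library, and the edgeR log2 changes were 2.76 in HOMO (SE 0.40, adjusted p = 0.00263) and 3.25 in WT (SE 0.33, adjusted p = 0.000116). Its call in HOMO was lost without HOMO CB 3 (adjusted p = 0.0566), while its call in WT held in all 24 alternatives. CD30 is also known on activated T cells: the summed level of 10 T cell genes was 6.74 to 10.3 CPM in HOMO CC, 1.502 to 13.3 CPM in WT CC, 6.19 to 6.68 CPM in HOMO CB and 1.41 to 7.89 CPM in WT CB, and its part in these values was not tested.

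Tnfrsf14 (chromosome 4, 154921933 to 154928563) encodes HVEM, which binds LIGHT and the inhibitory receptor BTLA. It stood at 50.10 and 44.98 CPM in HOMO CC and at 21.24 and 20.14 CPM in HOMO CB. In WT it stood at 58.41, 60.64 and 40.86 CPM in CC and at 19.15, 21.95 and 21.34 CPM in CB. The fractions did not overlap, and the CB libraries of both genotypes lay within 3 CPM of each other, while WT CC 3 was lower than the other WT CC libraries. The log2 change was 1.20 (SE 0.18, adjusted p by edgeR = 0.00296) in HOMO and 1.36 (SE 0.14, adjusted p = 0.000142) in WT. The HOMO call was lost without HOMO CB 3 or without HOMO CC 2 (adjusted p up to 0.0534).

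The receptors of BAFF and APRIL did not pass the test between fractions in the main fit. Tnfrsf13c (chromosome 15, 82221743 to 82224369) had 377.95 and 356.78 CPM in HOMO CC and 306.49 and 273.12 CPM in HOMO CB. In WT it had 455.36, 485.61 and 365.44 CPM in CC and 355.61, 365.02 and 264.63 CPM in CB. CC lay above CB in each genotype, with log2 differences of 0.34 (SE 0.17, adjusted p by edgeR = 0.308) in HOMO and 0.41 (SE 0.14, adjusted p = 0.0528) in WT, neither past the threshold. With the WT numbers as a fixed block it passed in HOMO (adjusted p = 0.0172) and in WT (adjusted p = 0.000884), and with a random block it passed in WT (adjusted p = 0.00935) and not in HOMO (adjusted p = 0.259). Other settings with all libraries called it in WT and not in HOMO. They were upper-quartile scaling, DESeq2 size factors in edgeR, no low-count filter, DESeq2 and a GC content offset. With the ribosomal RNA share as a covariate it was called in neither genotype. Tnfrsf13b (chromosome 11, 61126755 to 61149372) had 147.08 and 145.37 CPM in HOMO CC, against 118.73 and 109.56 CPM in HOMO CB. It had 97.35, 89.48 and 111.00 CPM in WT CC, against 112.23, 114.23 and 77.00 CPM in WT CB. The WT fractions overlapped, and the log2 differences were 0.36 (SE 0.18, adjusted p = 0.302) in HOMO and -0.03 (SE 0.14, adjusted p = 0.922) in WT. By WT number, CC lay below CB for numbers 1 and 2 and above it for number 3. The WT difference was -0.275 (adjusted p = 0.0039) without both WT libraries numbered 3, and 0.50 (adjusted p = 0.000757) with WT number 3 alone, a single library a fraction that is assumed to vary like the other groups.

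Of the receptors of TNF itself, Tnfrsf1b (TNFR2) had the higher level per kb, 5.61 against 0.30 CPM per kb for Tnfrsf1a. It had 23.86 and 24.77 CPM in HOMO CC, 26.74, 19.63 and 22.19 in WT CC, 21.02 and 19.96 in HOMO CB, and 18.00, 19.86 and 16.18 CPM in WT CB. It did not pass the test between fractions with TMM scaling and all libraries; in WT it passed with upper-quartile scaling and with the numbers as a block (adjusted p by edgeR = 0.0464 with a fixed block). Tnfrsf4 (OX40), Tnfrsf12a (Fn14, the TWEAK receptor) and Tnfrsf10b (the TRAIL death receptor of mice) reached a mean of 1 CPM in at least 1 group and did not pass the test in either genotype with all libraries; Tnfrsf10b was called in WT without WT CC 2. Tnfrsf18, which encodes GITR, had 1.22 and 1.23 CPM in HOMO CC, 0.90, 1.92 and 1.33 in WT CC, 0.37 and 0.22 in HOMO CB, and 0.24, 0.55 and 0.51 CPM in WT CB. It was higher in WT CC by a log2 change of 1.64 (SE 0.50, adjusted p by edgeR = 0.0336), and in HOMO it differed by 2.09 (SE 0.63, adjusted p = 0.0847, or 0.0332 with the fixed and 0.0674 with the random block). Its WT call was lost with the ribosomal RNA covariate, with no low-count filter and with only the groups compared. It was also lost without WT CB 1, WT CB 2, WT CC 2, HOMO CB 2, HOMO CB 3 or HOMO CC 2, among other settings. Gm16008 shares 27.2% of the exon bases of Tnfrsf18 on the opposite strand and had at most 0.164 CPM.

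Tnfrsf22, Tnfrsf23 and Tnfrsf26 are neighbouring genes on mouse chromosome 7, and the products of the first pair are known as TRAIL decoy receptors. The strand setting of the counting is not given in the sources used here, and reads may be split among such related genes. Tnfrsf22 had 5.61 and 4.74 CPM in HOMO CC, 4.97, 4.71 and 5.55 in WT CC, 3.44 and 2.38 in HOMO CB, and 3.03, 3.09 and 2.49 CPM in WT CB. Tnfrsf26 had 6.10 and 4.65 CPM in HOMO CC, 5.26, 4.92 and 4.91 in WT CC, 6.19 and 5.53 in HOMO CB, and 9.26, 8.28 and 7.07 CPM in WT CB. In WT, Tnfrsf22 was higher in CC (log2 change 0.82, SE 0.23, adjusted p by edgeR = 0.0262) and Tnfrsf26 lower (-0.70, SE 0.19, adjusted p = 0.0215). Both calls were lost with the ribosomal RNA covariate, with only the groups compared, and without WT CB 1 or WT CB 2, among other settings. In HOMO the log2 differences were 0.84 (adjusted p = 0.125) and -0.11 (adjusted p = 0.865).

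A further 3 receptors passed the test in WT and are set beside macrophage genes here: Tnfrsf11a (RANK), Tnfrsf21 (death receptor 6) and Tnfrsf1a (TNFR1). Tnfrsf21 had 5.31 and 5.60 CPM in HOMO CC, 20.37, 8.54 and 4.98 in WT CC, 3.33 and 2.88 in HOMO CB, and 4.41, 3.54 and 2.21 CPM in WT CB. Tnfrsf1a had 1.04 and 0.09 CPM in HOMO CC, 3.61, 0.93 and 1.40 in WT CC, 0.66 and 0.19 in HOMO CB, and 0.04, 0.00 and 0.36 CPM in WT CB. Tnfrsf11a had 0.00 and 0.28 CPM in HOMO CC, 5.13, 0.93 and 0.00 in WT CC, 0.04 and 0.00 in HOMO CB, and 0.00, 0.00 and 0.03 CPM in WT CB. For each of these receptors WT CC 1 was the highest of the 10 libraries. WT CC 2 was next for Tnfrsf21 and Tnfrsf11a, while for Tnfrsf1a it lay below WT CC 3 and HOMO CC 2. Log2 changes between the WT fractions were 1.76 for Tnfrsf21 (SE 0.45, adjusted p by edgeR = 0.0171) and 3.63 for Tnfrsf1a (SE 1.07, adjusted p = 0.0313). Tnfrsf11a had 143 counts in WT CC and 2 in WT CB, a ratio of 147 with a 95% counting interval of 39.9 to 1220 (adjusted p = 0.0187), and its WT groups overlapped at 0.

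Of 10 macrophage markers, 7 were higher in WT CC than in WT CB, and none passed in HOMO. Apoe made up most of the sum in CB and did not differ between the WT fractions (adjusted p = 0.313). The other 9 markers summed to 19.1 and 24.4 CPM in HOMO CC, 619.5, 151.9 and 36.6 CPM in WT CC, 7.95 and 9.52 CPM in HOMO CB, and 17.1, 9.21 and 14.0 CPM in WT CB. The markers with 0 counts in some library were Mertk, C1qb, C1qc and Marco, with at most 3 of them at 0 in any library. A check without WT CC 1 and WT CC 2, chosen after their values were seen, leaves 1 WT CC library, which is assumed to vary like the other groups. In it the log2 differences were 0.58 for Tnfrsf21 (adjusted p = 0.409) and 3.12 for Tnfrsf1a (adjusted p = 0.234), and Tnfrsf11a no longer passed the low-count filter. In that check 4 of the WT members stayed called: Tnfrsf8 at 3.05 (adjusted p = 0.00848), Tnfrsf14 at 0.98 (adjusted p = 0.00676), Tnfsf9 at 1.57 (adjusted p = 0.0416) and Traf3 at 0.55 (adjusted p = 0.026). The erythroid and megakaryocyte list moved with the same pair. The summed level of its 8 genes was 58.7 and 14.8 CPM in WT CC 1 and WT CC 2, against 4.33 CPM or less in the other libraries. Of 6 dendritic cell markers tested, 3 were higher in WT CC than in WT CB: Itgax (adjusted p by edgeR = 0.00904), Zbtb46 (adjusted p = 0.0346) and Clec9a (adjusted p = 0.00572). The sum of the dendritic cell list was 53.4 CPM in WT CC 1, 40.2 CPM in WT CC 2 and 41.5 CPM in WT CC 3. Flt3 made up most of it, at 45.3, 38.0 and 29.6 CPM, and did not differ between the WT fractions (adjusted p by edgeR = 0.758). In the same order Itgax had 5.30, 0.83 and 3.23 CPM, Zbtb46 0.66, 0.26 and 1.33 CPM, and Clec9a 2.05, 0.67 and 0.63 CPM. The part of RNA from these cell types in the members' values was not tested.

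**Figure D3:**
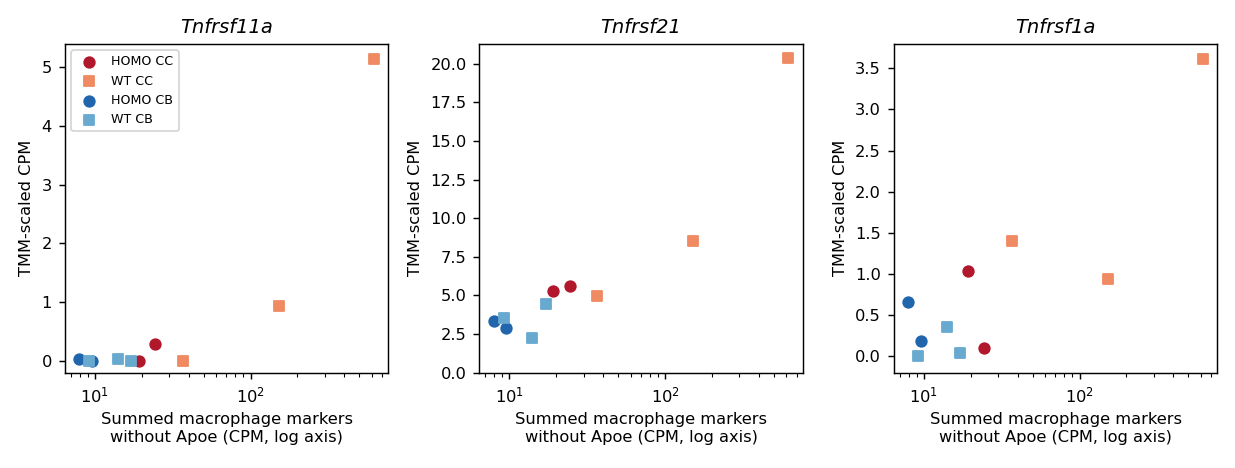
TMM-scaled CPM of Tnfrsf11a, Tnfrsf21 and Tnfrsf1a against the summed CPM of 9 macrophage markers without Apoe (log axis), 1 point per library. WT CC 1, at 619.5 CPM of markers, is the highest point in every panel, and WT CC 2 follows at 151.9 CPM on the marker axis.

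Of the ligands, Tnfsf9 had the highest level per kb. It encodes the ligand of 4-1BB, whose own gene, Tnfrsf9, stayed under 0.5 CPM in every library. Tnfsf9 (chromosome 17, 57105325 to 57107757) had 14.10 and 14.23 CPM in HOMO CC and 4.91 and 6.57 CPM in HOMO CB. It had 9.82, 15.33 and 20.01 CPM in WT CC and 5.12, 5.08 and 9.85 CPM in WT CB. It was higher in WT CC by a log2 change of 1.15 (SE 0.30, adjusted p by edgeR = 0.0193), although WT CC 1 lay just under WT CB 3, and in HOMO it differed by 1.30 (SE 0.38, adjusted p = 0.0734, or 0.00266 with the fixed and 0.0815 with the random block) with no overlap. Within each WT number CC was above CB. The WT call of Tnfsf9 was lost without WT CB 1, WT CB 2 or WT CC 2, and with only the groups compared. It was also lost without both libraries of WT number 1 and without both of number 2. On the opposite strand Gm11110 shares 14.9% of the exon bases of Tnfsf9, and it had 5.26 to 8.97 CPM.

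Tnfsf18, the GITR ligand, moved the other way. It had 0.92 and 0.95 CPM in HOMO CC, 0.45, 0.41 and 0.21 in WT CC, 1.28 and 1.40 in HOMO CB, and 1.22, 1.17 and 1.11 CPM in WT CB. Its WT CC libraries were the lowest, with 11, 8 and 3 counts. It was lower in WT CC by a log2 change of -1.65 (SE 0.41, adjusted p by edgeR = 0.0145), while in HOMO it differed by -0.53 (SE 0.47, adjusted p = 0.627). The WT call of Tnfsf18 was lost with the ribosomal RNA covariate and without WT CB 1, among other settings. It was also lost without both libraries of WT number 1 and without both of number 2. Tnfsf14, which encodes LIGHT, the ligand of HVEM, was at 0.47 to 2.56 CPM and did not pass the test between fractions with all libraries. In WT, CC lay below CB within each number (1.81 against 2.56, 0.47 against 1.99 and 1.12 against 1.99 CPM), and Tnfsf14 was called there with the fixed and the random block and without WT CC 1.

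The adaptors were all well expressed and split by direction. Traf3 (chromosome 12, 111166370 to 111267153), the brake on the alternative NF-kappaB pathway, had 140.67 and 129.43 CPM in HOMO CC, against 94.19 and 104.66 CPM in HOMO CB. It had 145.36, 143.95 and 126.59 CPM in WT CC, against 85.56, 84.27 and 90.09 CPM in WT CB. No CC library fell as low as any CB library. Traf3 was higher in CC by a log2 change of 0.44 in HOMO (SE 0.11, adjusted p by edgeR = 0.0427) and 0.68 in WT (SE 0.091, adjusted p = 0.000565). The HOMO call lies near the threshold (adjusted p = 0.0505 with the random block) and was lost in 11 of 24 alternatives.

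Traf4, a divergent family member best known from epithelial and developmental roles, had 32.77 and 34.35 CPM in HOMO CC, 39.14, 41.01 and 37.63 in WT CC, 24.83 and 24.47 in HOMO CB, and 31.28, 28.20 and 27.01 CPM in WT CB. It was higher in WT CC (log2 change 0.45, SE 0.096, adjusted p by edgeR = 0.00759), and the HOMO difference was 0.44 (SE 0.12, adjusted p = 0.0548, or 0.014 with the fixed and 0.08 with the random block).

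Traf5 (chromosome 1, 191997205 to 192092559), which works with Traf2 below CD40 and related receptors, was lower in CC. It had 86.72 and 84.64 CPM in HOMO CC, 86.83, 88.60 and 90.43 in WT CC, 116.16 and 117.39 in HOMO CB, and 128.46, 123.98 and 115.18 CPM in WT CB. The 5 CC libraries lay between 84.6 and 90.4 CPM, all below the CB libraries. Its log2 change was -0.45 in HOMO (SE 0.098, adjusted p by edgeR = 0.0232) and -0.47 in WT (SE 0.080, adjusted p = 0.00229). The HOMO call was lost in 7 of 24 alternatives and the WT call in 4.

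Traf6, the ubiquitin ligase shared by CD40, Toll-like and IL-1 receptors, had 51.33 and 55.04 CPM in HOMO CC, 46.25, 45.21 and 50.06 in WT CC, 70.86 and 67.49 in HOMO CB, and 71.22, 68.30 and 65.68 CPM in WT CB. It was lower in WT CC by a log2 change of -0.54 (SE 0.086, adjusted p by edgeR = 0.00167), and in HOMO it differed by -0.38 (SE 0.11, adjusted p = 0.0631, or 0.0188 with the fixed and 0.0838 with the random block) with no overlap.

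The remaining adaptors did not pass the test between fractions with all libraries. Traf1 and Traf2 were called in WT without WT CC 3 and without both WT libraries numbered 3 (log2 changes 0.194 and 0.22, adjusted p by edgeR = 0.021 and 0.0461, in the second case), and Traf7 was called in HOMO without WT numbers 1 and 2 and with only the groups compared. Traf1, an NF-kappaB-inducible adaptor, had 119.07 and 111.78 CPM in HOMO CC, 165.08, 168.55 and 120.48 in WT CC, 108.88 and 110.72 in HOMO CB, and 140.72, 151.16 and 117.76 CPM in WT CB. Traf2, which recruits the ubiquitin ligases Birc2 and Birc3, had 54.80 and 46.02 CPM in HOMO CC, 62.27, 60.48 and 52.03 in WT CC, 46.11 and 46.29 in HOMO CB, and 52.16, 53.35 and 47.33 CPM in WT CB. Traf7, which has WD40 repeats in place of the TRAF domain, had 111.44 and 109.88 CPM in HOMO CC, 124.62, 134.27 and 114.79 in WT CC, 97.93 and 100.69 in HOMO CB, and 116.33, 123.81 and 98.89 CPM in WT CB. For Traf1 and Traf7, WT CC 3 and WT CB 3 lay below the WT libraries numbered 1 and 2.

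**Figure D4:**
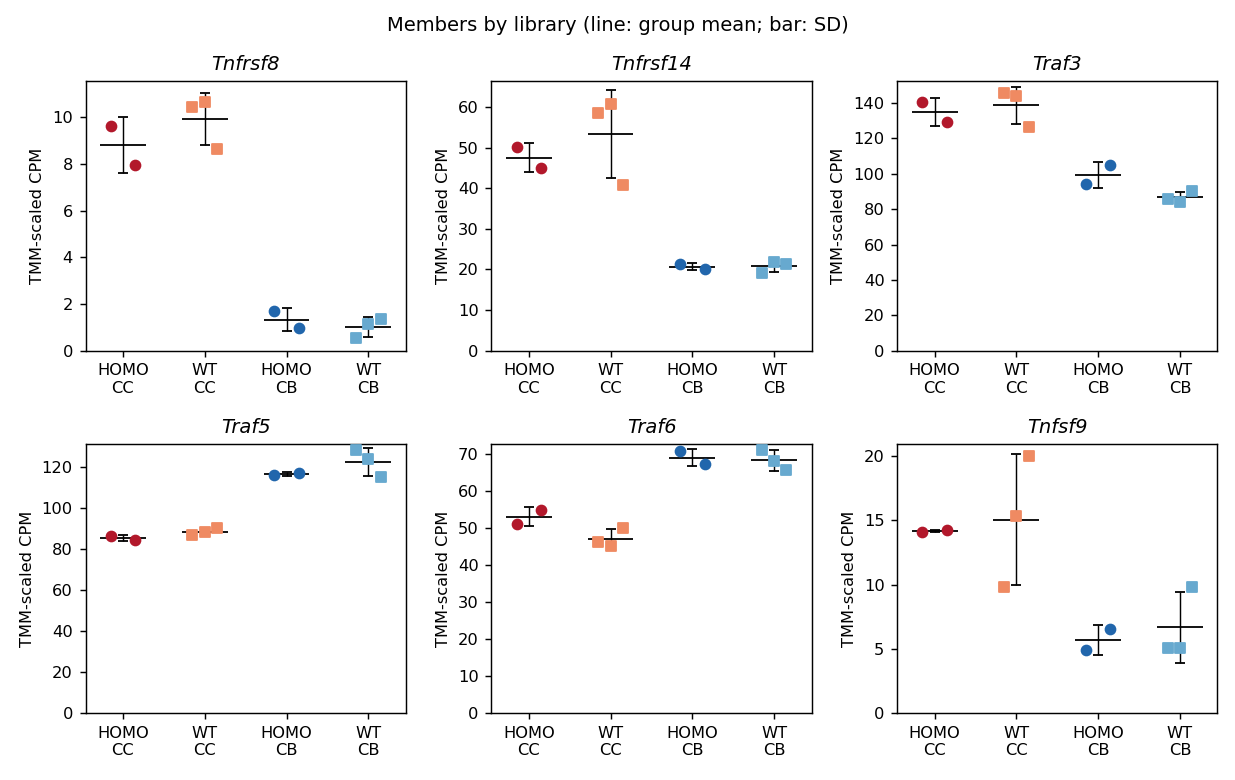
TMM-scaled CPM per library of Tnfrsf8, Tnfrsf14, Traf3, Traf5, Traf6 and Tnfsf9 in HOMO CC, WT CC, HOMO CB and WT CB, each axis starting at 0; the line is the group mean and the bar the SD over 2 (HOMO) or 3 (WT) libraries. Tnfrsf8, Tnfrsf14 and Traf3 are higher in both CC groups, Traf5 and Traf6 lie lower there, and Tnfsf9 overlaps between WT CC and WT CB.

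The interaction of genotype and fraction, the test of whether the fraction difference itself differed between HOMO and WT, was passed by 0 of 30 members and by 0% of all genes. At an unadjusted p under 0.05 it took in 0 members and 434 genes (2.62%), and DESeq2 called 0 members. A member called in WT and not in HOMO is therefore not shown to differ between the genotypes. The HOMO arm had 2 libraries a fraction, against 3 in WT.

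Between the genotypes no member passed the test. Pbrm1 itself passed in CB (log2 difference -0.875, adjusted p by edgeR = 0.00954). In CC it did not (-0.68, adjusted p = 0.0564), though it had the smallest adjusted p of all genes there. A member not called is therefore not shown to be alike in the genotypes. In CC, 0 of 30 passed by edgeR, as did 0% of all genes; 3 members and 3142 genes (18.9%) had an unadjusted p under 0.05, and DESeq2 called 1 member, Tnfrsf13b, and 4.92% of all genes. In CB, 0 of 30 passed and 0.0241% of all genes did, 4 in number; 1 member and 2079 genes (12.5%) had an unadjusted p under 0.05, and DESeq2 called 0 members and 1.67% of all genes. The members' median log2 change was -0.12 in CC, against -0.031 over all genes, and -0.13 in CB, against -0.039. Genotypes did not overlap for 8 members in CC and for 8 in CB, where 35.2% of all genes did not overlap in either.

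The lowest adjusted p between genotypes among the members was that of Tnfrsf13b in CC. With the values given above, both HOMO CC libraries lay over the highest WT CC library, by a log2 difference of 0.56 (SE 0.16, adjusted p by edgeR = 0.136). The sign was positive in 23 of 23 alternatives, between 0.397 and 0.675, and the test was passed in 6 of them. In CB the difference was 0.18 (SE 0.16, adjusted p = 0.663) and the genotypes overlapped. Tnfsf18 in CC differed by 1.33 (SE 0.47, adjusted p = 0.182), with HOMO CC over every WT CC library. Traf1 differed by -0.39 in CC (SE 0.15, adjusted p = 0.208) and by -0.31 in CB (SE 0.15, adjusted p = 0.419), with HOMO under WT and no overlap in either fraction. Tnfrsf26 in CB differed by -0.48 (SE 0.21, adjusted p = 0.387), also without overlap.

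The number of members called between genotypes depended on the WT libraries numbered 3. Without that pair, the WT CC group is WT CC 1 and WT CC 2, the libraries richest in ribosomal RNA and macrophage counts. Then 9 of 27 members tested passed in CC, where 31.3% of all genes did: Tnfrsf13b and Traf6 higher in HOMO, and Tnfrsf11a, Tnfrsf13c, Tnfrsf14, Tnfrsf21, Traf1, Traf2 and Traf7 lower. In CB 5 of 27 passed, where 30.4% of all genes did: Traf3 higher, and Tnfrsf13c, Tnfrsf26, Traf1 and Traf7 lower. Tnfrsf13b then differed by 0.68 in CC (adjusted p = 1.52e-05) and was the member called for the interaction (0.64, adjusted p = 0.00116); without WT numbers 1 and 2 the interaction was -0.123 (adjusted p = 1). Traf1 differed by -0.50 in CC (adjusted p = 8.84e-05) and by -0.38 in CB (adjusted p = 0.000563). Without WT numbers 1 and 2, with 1 WT library left in each fraction and assumed to vary like the other groups, 2 of 30 members passed in CC (Tnfrsf12a and Tnfrsf13b), where 3.95% of all genes did, and 3 in CB (Tnfrsf12a, Tnfrsf13b and Tnfsf9), where 4.07% did. In CC, Tnfrsf21 then differed by 0.151, Tnfrsf14 by 0.247, Tnfrsf13c by 0.032, Traf6 by 0.107, Traf1 by -0.036, Traf2 by -0.013 and Traf7 by -0.029, none of them called. The tie of counts to GC content also set these libraries apart: its Spearman correlation over 8802 genes was -0.173 and -0.222 in HOMO CC, 0.431, 0.552 and 0.152 in WT CC, -0.632 and -0.605 in HOMO CB, and 0.150, 0.248 and -0.457 in WT CB, with the last of each WT triplet being number 3. With a GC content offset and all libraries, 0 members passed in CC, where 0.0121% of all genes did, and 0 in CB, where 0.0241% did; 3 members in CC and 4 in CB had an unadjusted p under 0.05.

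**Figure D5:**
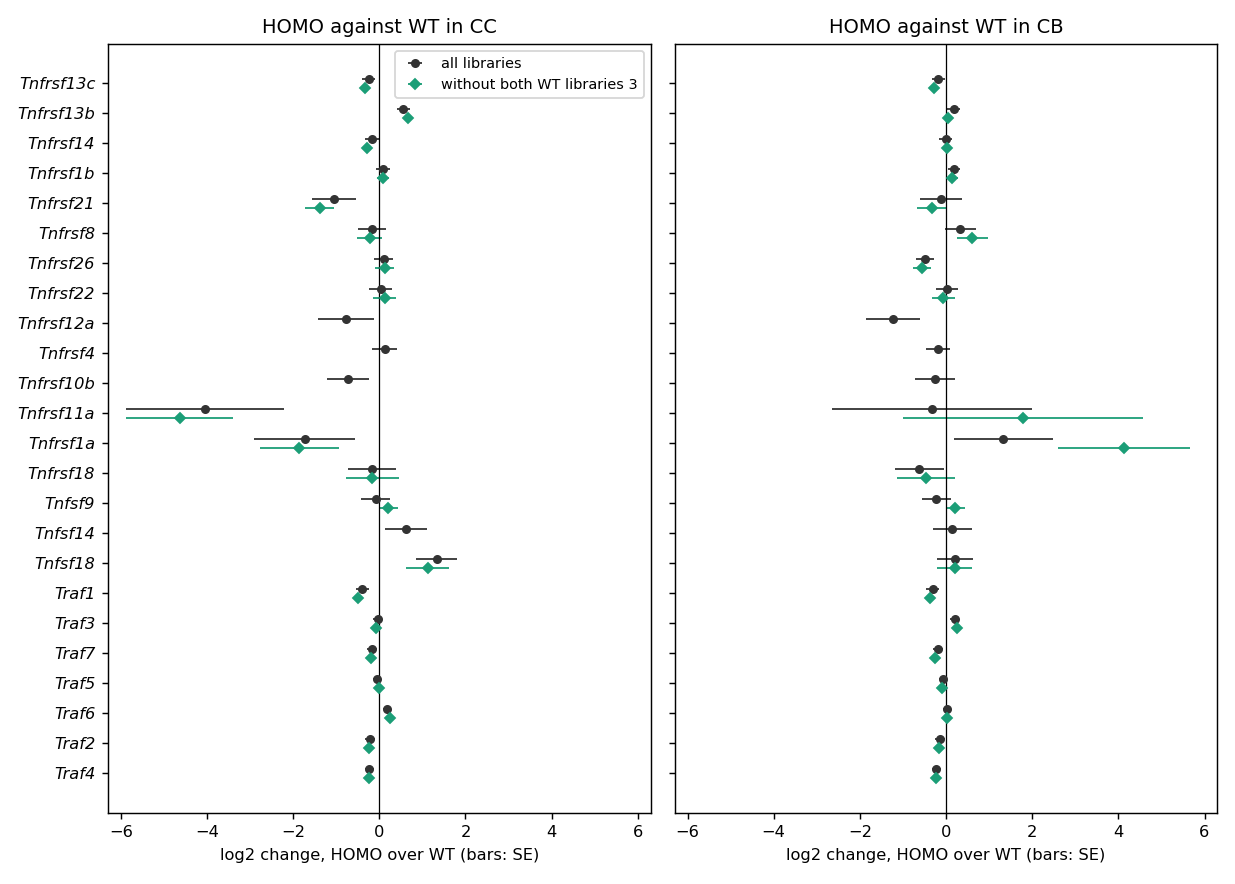
Log2 difference of HOMO over WT with its SE for the expressed members, in CC (left) and CB (right); black circles use all libraries and green diamonds leave out both WT libraries numbered 3, drawn for members with per-library values in the text that could be fitted. Tnfrsf13b lies right of 0 in CC at 0.56 and 0.68, and Traf1 lies left of 0 in both fractions.

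The members of the superfamily with other symbols, a list of 16 genes of which 13 were tested, showed 1 gene higher and 0 lower in CC in HOMO, and 5 higher and 0 lower in WT. Their median log2 change was 0.70 in HOMO and 0.61 in WT, against -0.010 and 0.0097 over all genes. Of all genes, 5.45% passed in HOMO and 23.9% in WT. Cd40, the receptor of T cell help, had 68.84 and 62.06 CPM in HOMO CC, against 29.85 and 30.20 CPM in HOMO CB. It had 79.77, 88.29 and 72.39 CPM in WT CC, against 37.74, 46.41 and 34.06 CPM in WT CB. It was higher in CC by log2 changes of 1.12 (SE 0.15, adjusted p by edgeR = 0.00195) and 1.03 (SE 0.12, adjusted p = 0.000306), with no overlap. The other genes higher in WT CC were Ngfr (1.58, adjusted p = 0.00671), Lta (0.74, adjusted p = 0.031), Tnf (0.61, adjusted p = 0.0373) and Ltbr, which had 63 counts in WT CC and 3 in WT CB (adjusted p = 0.0254), most of them in WT CC 1. Between genotypes 0 of the 13 passed in either fraction, where 0% of all genes passed in CC and 0.0241% in CB.

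The list of 47 adaptors, kinases and regulators below the receptors was tested whole. In HOMO 8 were higher in CC and 0 lower, with a median log2 change of 0.19, and in WT 15 were higher and 3 lower, with a median of 0.15. Over all genes 5.45% passed in HOMO and 23.9% in WT, with medians of -0.010 and 0.0097. Ikbke, an IKK-related kinase, was higher by 1.93 in HOMO (edgeR adjusted p = 0.000422) and 1.88 in WT (adjusted p = 2.77e-05). The alternative pathway subunits Nfkb2 (1.15 in HOMO, adjusted p = 0.000472; 1.29 in WT, adjusted p = 2.43e-05) and Relb (1.05, adjusted p = 0.00186; 1.30, adjusted p = 5.59e-05) were higher in CC as well. Birc3, the ubiquitin ligase recruited by Traf2, was higher by 0.63 in HOMO (adjusted p = 0.00386) and 0.56 in WT (adjusted p = 0.000724). Map3k14, the kinase that Traf3 holds back, differed by 0.19 in HOMO (adjusted p = 0.459) and 0.27 in WT (adjusted p = 0.067). The genes lower in WT CC were Tab2 (-0.49, adjusted p = 0.00265), Tab3 (-0.46, adjusted p = 0.0293) and Mapk9 (-0.29, adjusted p = 0.0487). Between genotypes 0 of the 47 passed in either fraction, where 0% of all genes passed in CC and 0.0241% in CB.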

How the data were processed

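Total RNA depleted of ribosomal RNA was sequenced, per the labels' protocols. The authors deposited whole-number read counts per gene with gene lengths; featureCounts of Subread, STAR, FastQC, R 4.2.1 and the build mm10 are named without settings, per the submitters' processing notes. Columns were tied to groups by genotype and fraction in their names; the HOMO columns carry numbers that differ from the titles and were not paired. Of 55421 gene IDs, 267 matched no symbol.

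Counts were scaled by TMM and tested with edgeR 4.0.16 (R 4.3.3): filterByExpr (minimum count 10, total 15), robust quasi-likelihood fit of 4 group means, 5 contrasts, Benjamini-Hochberg over 16596 genes. The common biological coefficient of variation was 23.1%. Alternatives used DESeq2 1.42.0, limma 3.58.1, other scalings, filters, covariates and left-out libraries. Libraries of a group differed by more than sampling noise.

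Same-numbered WT libraries deviated together (r = 0.301, 0.426 and 0.436 over 8805 genes). Unlike numbers did so too for WT CB 1 with WT CC 2 (r = 0.278) and WT CB 2 with WT CC 1 (r = 0.163). Number 3 deviated against the others (r = -0.244 to -0.411). The values thus set number 3 apart and pair numbers 1 and 2 only weakly, and the block follows the replicate numbers in the titles. Values per library are given for members called in any contrast with a mean of 1 CPM, for Tnfrsf8, Tnfrsf13c and Traf1, and for members at 10 CPM or more. Members and lists were chosen with earlier results of these data known.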

Additional observations from a re-analysis of the deposited data

How the results depend on the processing

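The count of members called between the HOMO fractions was 4 (5.45% of all genes), and became 8 with DESeq2 (10%), 2 with a GC content offset (6.66%), 2 without both libraries of WT number 1 (3.73%), 2 without both of number 2 (4.47%), 11 without both of number 3 (23%), 13 without WT numbers 1 and 2 (27%), 7 without WT CC 1 and WT CC 2 (7.89%), and 13 with only the groups compared (30.4%); leaving out 1 library gave 0 to 7. Between the WT fractions the count was 14 (23.9%), and became 3 with the ribosomal RNA share as a covariate (3.95%; Tnfrsf8, Tnfrsf14 and Tnfsf9), 5 without both libraries of WT number 1 (6.32%), 5 without both of number 2 (7.62%), 4 without WT CC 1 and WT CC 2 (4.96%), and 9 with only the groups compared (15.6%); leaving out 1 library gave 7 to 17. Over all genes, leaving out 1 library gave 0.976% to 9.7% between the HOMO fractions and 12.7% to 32.5% between the WT fractions. For HOMO against WT in CC the count was 0 (0% of all genes). It became 3 with no low-count filter (4.49%), 1 with DESeq2 (4.92%) and 9 without both libraries of WT number 3 (31.3%). Leaving out 1 library gave 0 to 4 there, the 4 without WT CC 3 (14.8%). In CB the count was 0 (0.0241%), and became 5 without both libraries of WT number 3 (30.4%). Leaving out WT numbers 1 and 2, or WT CC 1 and WT CC 2, leaves a group with 1 library, assumed to vary like the others. The interaction gave 1 member without both libraries of WT number 3, where 8.98% of all genes passed. The causes were not tested.

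With the replicate block of WT numbers as a fixed term the counts were 17 in WT (35.4% of all genes) and 9 in HOMO (13.8%). As a random term (correlation 0.307) they were 16 in WT (33.6%) and 3 in HOMO (4.99%). The interaction stayed at 0. Among results called in either setting, the sign was reversed for Tnfrsf11a between the WT fractions with the ribosomal RNA covariate (-0.79, adjusted p = 0.931) and for Tnfrsf13b between them without WT numbers 1 and 2 (0.50, adjusted p = 0.000757, 1 library a fraction). Of 2307 alternative values of named members, 159 had the other sign; the remaining 157 were called in neither setting, such as Tnfrsf21 in HOMO CC against WT CC (-1.06, or 0.151 without WT numbers 1 and 2). Among all genes called between fractions, the share higher in CC was 58.5% in HOMO and 59.5% in WT with upper-quartile scaling, against 45.2% and 48.3% with TMM. HOMO groups of 2 libraries, and CC totals down to 9954006 counts, limit what could be detected for members around 1 CPM.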

Other observations

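Tnfrsf12a, the TWEAK receptor gene, followed the WT library numbers more than the fractions, a feature noticed after its values were seen. It had 2.01 and 2.28 CPM in HOMO CC, 2.26, 2.38 and 6.39 CPM in WT CC, 0.84 and 1.68 CPM in HOMO CB, and 1.81, 1.58 and 5.54 CPM in WT CB. The libraries numbered 3 were the highest in both WT groups, and the other 8 libraries lay at 2.38 CPM or less. The cause was not tested.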
